A study of Mus musculus with 30 samples.

Results

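Isolated mouse islets were exposed to cadmium in a dish, and their RNA was set against that of islets kept with vehicle for the same 96 hours. The 10 libraries whose labels read 96 hours were used, of 30 libraries in all: 5 from islets cultured with 0.5 µM cadmium chloride and 5 from islets cultured with vehicle. All came from male wild-type C57BL/6N mice, and none carried a transgene or a deletion per the labels. Islets are clusters of endocrine cells in the pancreas, mainly insulin-secreting beta cells with alpha, delta and PP cells, and each islet preparation also carries blood vessel, stellate, nerve-sheath and immune cells. The other 20 libraries came from islets of mice given 1 mM cadmium chloride or vehicle for 6 weeks (4 and 5 libraries) or 18 weeks (5 and 6 libraries), and they were used for a comparison at the end. The labels give neither the ages of the mice, nor how many animals a library pools, nor what the vehicle was. They also do not state whether the 5 libraries of a group were separate cultures or animals, so each p-value rests on the scatter among these libraries, part of which could be technical.

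Cadmium is a toxic metal that enters cells through carriers for zinc, iron, manganese and calcium and binds to thiol groups. Cells answer it mainly through the zinc-sensing transcription factor MTF1, which binds metal response elements and switches on metallothioneins, small cysteine-rich proteins that hold zinc and cadmium, and the zinc exporter Slc30a1. At higher doses cadmium is also known to activate NRF2, the regulator of antioxidant genes, and the heat shock response. Beta cells concentrate zinc in their granules, where it packs insulin into crystals.

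Total counts were 24197072 to 26549350 in cadmium and 24267100 to 26501641 in vehicle libraries, so depth was nearly even. Of the defining transcripts of islets, Ins2, Ins1, Gcg and Iapp were the most abundant in culture and held 9.77%, 3.12%, 2.79% and 2.03% of all counts, while the 36 acinar marker genes together reached 85.3 to 124.7 CPM in cadmium and 86.7 to 154.8 CPM in vehicle libraries. CPM, the unit of all levels given here, relates a gene's count to the TMM-scaled size of its library. Of those acinar markers, Ptf1a, Ctrc, Amy2a5, Cela3a and Amy2b stood at 0 in all 10 libraries. The libraries numbered 2 stood highest in matrix transcripts in both groups, and cadmium library 5 stood lowest in insulin transcripts, as described further on.

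The answer to how many genes changed depended on whether libraries of the same replicate number were treated as pairs. With the replicate number as a block, 223 of 16743 tested genes (1.33%) passed a Benjamini-Hochberg adjusted p of 0.05 in the quasi-likelihood test of edgeR. Of these, 211 (1.26%) were higher and 12 (0.0717%) lower with cadmium. Without the block 1 gene was called (0.00597%), Mt1, while 1692 genes (10.1%) had an unadjusted p below 0.05 with the block and 920 (5.49%) without it. Libraries of the same number deviated from their group means with correlations of 0.15, 0.29, 0.28, 0.075 and 0.17 over all tested genes. Each cadmium library correlated best with the vehicle library of its own number. The highest correlation of a cadmium with a vehicle library of another number was 0.20, above the values of pairs 1, 4 and 5. The vehicle libraries of these 3 pairs correlated best with a cadmium library of another number. The labels do not say what a number shares, so the pairing is a hint from the data and not a part of the design. Apart from Mt1, every gene said below to have risen or fallen, or to be called, was called with the block and not without it.

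The changes were small and mostly in 1 direction. The 211 genes called higher had a median log2 fold change (cadmium over vehicle) of 0.48, with a range of 0.16 to 2.45, beside a median of -0.0025 over all tested genes. In 200 of them cadmium lay above vehicle in all 5 pairs and in the other 11 in 4 pairs. Of all tested genes 5.94% were higher in all 5 pairs. The test with the block picks genes that move alike across pairs, so counts of pairs follow in part from the selection. The groups overlapped for most: all 5 cadmium libraries lay above all 5 vehicle libraries for 4 of the 211 called genes, and for 0.328% of all tested genes. The 12 genes called lower had a median of -0.16, and all were lower in 5 of 5 pairs, as were 5.19% of all tested genes. For 5 of them every cadmium library lay below every vehicle library, as it did for 0.43% of all tested genes. Among the 211 genes called higher, 209 were protein-coding, as were 13948 of all 16743 tested genes. The counts also moved with the pairs used: without pairs 1 to 5 in turn, 102, 119, 183, 156 and 261 genes were called, and 101, 104, 158, 138 and 188 of them were among the 223. DESeq2 called 130 genes with the block and limma-voom 228, of which 125 and 219 were among the 223.

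Mt1, which encodes metallothionein 1 (chromosome 8, 94179082 to 94180327, + strand, mm10), was the gene of smallest p and rose in every pair. Its levels were 309.9, 312.1, 343, 331 and 271.2 CPM in cadmium libraries 1 to 5, against 197.8, 179.7, 209.3, 237.1 and 190.1 CPM in vehicle libraries 1 to 5. The lowest cadmium library stood above the highest vehicle library. The means were 313 ± 27.3 and 203 ± 22.02 CPM (cadmium and vehicle, SD, n = 5 each), a log2 fold change of 0.63 ± 0.041 (SE), with an adjusted p of 2.5e-06 with the block and 0.00386 without it. Mt1 lost its call when all 30 libraries shared 1 fit (adjusted p = 1, log2 fold change 0.63) and when the level of stellate markers was added as a covariate (adjusted p = 0.79, log2 fold change 0.52). Without each pair in turn Mt1 kept its call, with adjusted p between 1.93e-08 and 5.52e-05.

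Mt2, the neighbouring metallothionein gene (chromosome 8, 94172664 to 94173568, + strand), also rose, at a far lower level. Cadmium libraries averaged 3.245 CPM of Mt2 and 313.4 CPM of Mt1, not scaled by gene length. It stood at 2.37, 2.88, 4.35, 3.81 and 2.81 CPM in cadmium libraries, against 1.96, 1.23, 2.03, 2.605 and 1.69 CPM in vehicle libraries. Cadmium was higher in all 5 pairs, and the groups overlapped by the vehicle library numbered 4 and the cadmium library numbered 1. The log2 fold change was 0.77 ± 0.15 (SE, adjusted p = 0.0162), and the call was lost without pair 2 or pair 3 (adjusted p = 0.0812 and 0.0808). Slc30a1, the plasma membrane zinc exporter (chromosome 1, 191906767 to 191913247, + strand), was higher by a small step, at 48.0, 50.95, 49.8, 54.7 and 54.0 CPM in cadmium libraries, against 43.8, 45.25, 47.0, 49.6 and 44.4 CPM in vehicle libraries. Its log2 fold change was 0.16 ± 0.038 (SE, adjusted p = 0.0489), and the groups overlapped. The call of Slc30a1 stood just inside the threshold and was lost without any 1 of the 5 pairs (adjusted p between 0.0706 and 0.173) and with DESeq2 (adjusted p = 0.172). Mt3, the third metallothionein measured, stood near 1 CPM and did not pass, at 1.17 ± 0.11 CPM in cadmium and 1.16 ± 0.34 CPM in vehicle libraries (SD, n = 5 each).

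These were the 3 members called of 11 tested in the list of metallothioneins and MTF1 targets, whose median log2 fold change was 0.04. None of the 12 zinc importers tested was called, and 1 had an unadjusted p below 0.05, Slc39a10, at 22.6 ± 1.61 CPM in cadmium and 25.2 ± 1.48 CPM in vehicle libraries (SD, n = 5 each; adjusted p = 0.31). DESeq2 and limma-voom also called 0 of the zinc importers. Of 16 other candidate cadmium carriers 0 were called, with 2 at an unadjusted p below 0.05 and 0 called by DESeq2 or limma-voom.

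The start regions of the 3 genes are shown because metal response elements there are the known entry point of the metal response. Each sequence is RefSeq's 250 bases before to 50 bases after the annotated start on build GRCm38.p6, read 5′ to 3′ on the strand of the gene. Capitals mark matches to the metal response element core, searched as TGCACNC and TGCGCNC on both strands. Mt1 lies at chr8:94178839-94179138 (+), Mt2 at chr8:94172368-94172667 (+) and Slc30a1 at chr1:191906531-191906830 (+).
Mt1: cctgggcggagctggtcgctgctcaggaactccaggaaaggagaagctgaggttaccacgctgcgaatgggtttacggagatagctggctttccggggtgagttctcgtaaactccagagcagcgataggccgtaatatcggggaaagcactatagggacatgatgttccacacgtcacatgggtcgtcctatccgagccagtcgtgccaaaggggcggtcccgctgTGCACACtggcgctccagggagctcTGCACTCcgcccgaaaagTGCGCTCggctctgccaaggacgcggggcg
Mt2: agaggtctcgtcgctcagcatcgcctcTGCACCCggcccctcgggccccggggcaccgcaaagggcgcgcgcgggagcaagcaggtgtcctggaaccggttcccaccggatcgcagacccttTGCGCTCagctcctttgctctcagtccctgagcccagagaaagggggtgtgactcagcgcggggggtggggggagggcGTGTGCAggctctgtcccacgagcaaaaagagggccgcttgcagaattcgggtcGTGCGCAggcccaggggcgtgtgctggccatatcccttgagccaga
Slc30a1: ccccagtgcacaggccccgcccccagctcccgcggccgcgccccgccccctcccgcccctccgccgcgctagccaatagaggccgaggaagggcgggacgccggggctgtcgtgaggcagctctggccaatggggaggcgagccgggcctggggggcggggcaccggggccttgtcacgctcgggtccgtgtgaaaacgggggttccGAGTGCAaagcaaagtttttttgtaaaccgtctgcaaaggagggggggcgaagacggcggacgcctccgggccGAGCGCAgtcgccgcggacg
The search found 3 core matches for Mt1, 4 for Mt2 and 2 for Slc30a1. At least 1 match stood in 25.7% of all 32851 promoters in the table and at least 3 in 1.97%. Among the genes called higher, 149 had a promoter in the table, and 52 of them (34.9%) held at least 1 match, beside 39.9% of the 11801 tested genes with a promoter. The antioxidant response element core, searched as TGACNNNGC and TGATNNNGC on both strands, stood in 18.1% of the promoters of genes called higher and in 23.5% of those of tested genes. A match describes these letters and is not a measured binding site.

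**Figure D1:**
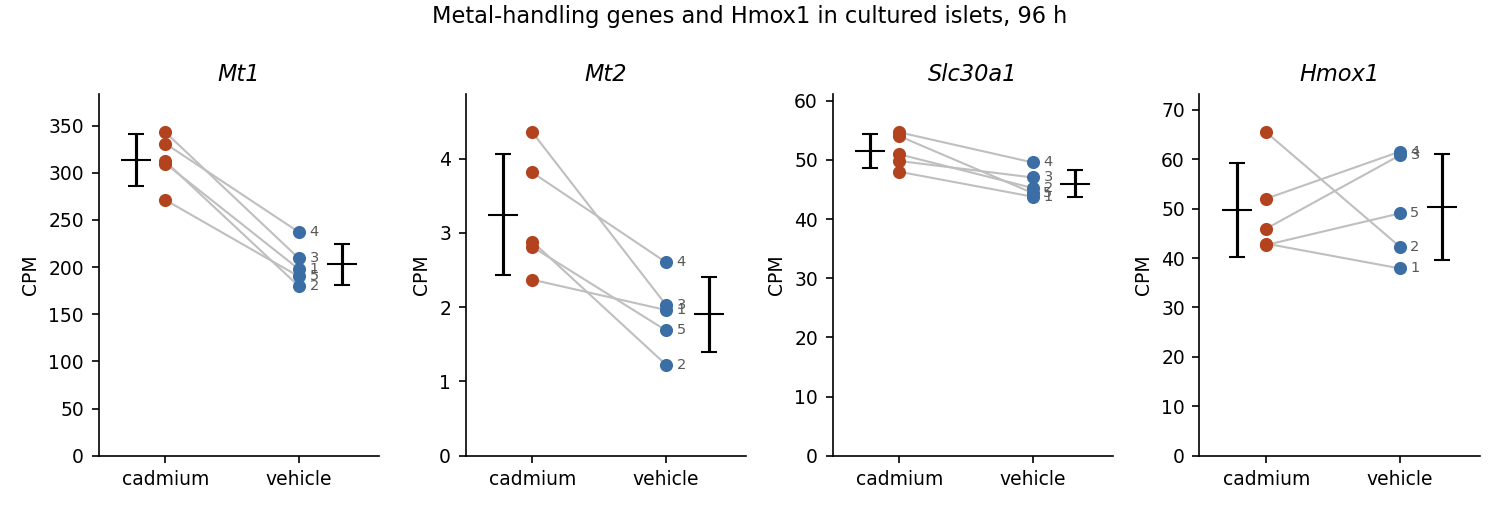
CPM of Mt1, Mt2, Slc30a1 and Hmox1 in each library, cadmium (left, red) and vehicle (right, blue), with lines joining libraries of the same replicate number (printed at the right) and black bars for mean ± SD (n = 5). Mt1 is separated between the groups, at 271.2 to 343 CPM with cadmium and 179.7 to 237.1 CPM with vehicle, whereas the lines of Hmox1 cross.

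In the lists of NRF2 targets, heat shock, unfolded protein response and integrated stress response genes, edgeR called no gene. Lists above and below are read beside all tested genes. Of these 1.33% were called, 10.1% had an unadjusted p below 0.05 and 48.6% were on the higher side. At that share of calls a short list can hold no called gene, so 0 called is no result by itself. Hmox1, the haem oxygenase that NRF2 and heat shock factors induce, stood at 42.9, 65.4, 45.9, 52.0 and 42.6 CPM in cadmium libraries, against 37.9, 42.3, 60.8, 61.5 and 49.0 CPM in vehicle libraries. Cadmium was higher in pairs 1 and 2 and lower in pairs 3 to 5, with a log2 fold change of -0.01 ± 0.10 (SE, adjusted p = 0.98). Of 31 NRF2 targets tested 0 were called, 17 were on the higher side, and the median was 0.0012. At an unadjusted p below 0.05 there were 2 higher and 2 lower, and DESeq2 and limma-voom called 0. Among them, Txnrd1, thioredoxin reductase, had a log2 fold change of 0.05 ± 0.028, Gclm, the modifier subunit of glutathione synthesis, -0.03 ± 0.033, Nqo1, a quinone reductase, 0.02 ± 0.092, and Slc7a11, the cystine importer, 0.15 ± 0.073 (SE).

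The heat shock list gave 0 called of 24 (median -0.03), with 2 higher and 4 lower at an unadjusted p below 0.05 and 0 called by DESeq2 or limma-voom. Hspa1a and Hspa1b, the near-identical inducible HSP70 genes whose reads may be split between them, stood at 2.28 ± 1.77 and 3.51 ± 2.14 CPM in cadmium and at 2.23 ± 1.54 and 4.47 ± 2.99 CPM in vehicle libraries (SD, n = 5 each). Genes of the endoplasmic reticulum unfolded protein response gave 0 called of 28, with 26 on the lower side (median -0.04), 0 higher and 5 lower at an unadjusted p below 0.05, and 1 called by DESeq2 and 0 by limma-voom. Hspa5, the main chaperone of that compartment, stood at 1521 ± 115 CPM in cadmium and 1566 ± 95.55 CPM in vehicle libraries (SD, n = 5 each). The integrated stress response gave 0 called of 34 (median -0.01), with 2 higher and 2 lower at an unadjusted p below 0.05 and 0 called by DESeq2 or limma-voom. Its transcription factors Ddit3 and Atf3 and its inhibitor Trib3 had log2 fold changes of -0.04 ± 0.043, 0.15 ± 0.074 and -0.02 ± 0.035 (SE).

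Single genes passed in the lists of p53 targets, glutathione and thiol systems and class I antigen presentation. Pmaip1, which encodes the pro-apoptotic protein NOXA, was higher at 0.71 ± 0.12 on the log2 scale (SE, adjusted p = 0.0060), with 3.99 ± 1.40 CPM in cadmium and 2.46 ± 1.01 CPM in vehicle libraries (SD, n = 5 each). It was the 1 gene called of 25 p53 targets and of 22 apoptosis regulators. Cdkn1a, the cell cycle inhibitor that p53 drives, did not pass (0.10 ± 0.042, adjusted p = 0.45). Gpx8, a peroxidase of the endoplasmic reticulum, rose by 0.58 ± 0.12 (adjusted p = 0.0221) and was the 1 gene called of 25 in the glutathione and thiol list, where DESeq2 called 0 (adjusted p of Gpx8 = 0.107) and limma-voom 1. B2m, the light chain of class I antigen presentation, rose by 0.20 ± 0.038 (adjusted p = 0.0173) and was the 1 gene called of 15 in its list, of which 13 were on the higher side.

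The immediate early genes, which cells switch on within minutes of a stimulus, gave 1 called of 28, Klf2. It was a low transcript, at 0.764, 1.015, 0.554, 0.754 and 0.937 CPM in cadmium libraries, against 0.440, 0.435, 0.192, 0.413 and 0.314 CPM in vehicle libraries. All cadmium libraries lay above all vehicle libraries, and the log2 fold change was 1.16 ± 0.24 (SE, adjusted p = 0.0233). Without each pair in turn its adjusted p lay between 0.0542 and 0.111, and DESeq2 gave it no adjusted p. Egr1, another member, ranged widely within both groups, from 3.64 to 24.2 CPM in cadmium and from 3.07 to 66.4 CPM in vehicle libraries, with the highest value of each group in libraries numbered 4 (adjusted p = 0.067).

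The genes next by p after Mt1, namely Col5a2, Col6a3 and Postn, belong to the extracellular matrix. Of the 211 genes called higher, 33 stood in at least 1 of the 44 gene lists, 20 of them in the list of stellate cell and fibroblast markers, and 49 stood in at least 1 of 11 matrix and growth factor families that were chosen after the values were seen. Col5a2, a fibrillar collagen chain, was second by p after Mt1. It stood at 177.2, 295.3, 139.4, 167.4 and 208.8 CPM in cadmium libraries, against 99.6, 180.5, 100.3, 113.2 and 160.3 CPM in vehicle libraries. Cadmium was higher in every pair, yet the groups overlapped because libraries numbered 2 and 5 were high in both. The log2 fold change was 0.59 ± 0.050 (SE, adjusted p = 4.7e-05 with the block, 0.89 without it). Col6a3, a chain of the microfibrillar collagen VI, and Postn, the matrix protein periostin, followed at 0.42 ± 0.038 and 0.55 ± 0.050 (SE), each with an adjusted p of 6.3e-05.

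Of 23 tested markers of stellate cells and fibroblasts, the collagen-making cells around islets and vessels, 20 were called higher, 22 were on the higher side, and the median log2 fold change was 0.54. Without the block 0 of the 23 were called, and the median was 0.55. With the block DESeq2 called 13 of them and limma-voom 20, and without pairs 1 to 5 in turn edgeR called 15, 15, 18, 16 and 20. Across the pairs the median was 0.83, 0.57, 0.33, 0.38 and 0.32 in pairs 1 to 5. Fn1, fibronectin, had 354 ± 86.2 CPM in cadmium and 274 ± 102 CPM in vehicle libraries, and the fibrillar collagen gene Col3a1 had 265 ± 104 and 172 ± 64.0 CPM (SD, n = 5 each). Sparc, a collagen-binding glycoprotein, stood at 228 ± 59.2 and 169.9 ± 54.6 CPM, and the type I collagen chain Col1a1 at 204.5 ± 85.1 and 132.5 ± 55.8 CPM (cadmium and vehicle, SD, n = 5 each). Their log2 fold changes were 0.41, 0.62, 0.44 and 0.63. The intermediate filament gene Vim rose by 0.45 ± 0.059, the proteoglycan gene Dcn by 0.60 ± 0.086 and the smooth muscle actin gene Acta2, a mark of activated stellate cells, by 0.32 ± 0.064 (SE). The receptors Pdgfra and Pdgfrb, which mark fibroblasts and pericytes, rose by 0.82 ± 0.18 and 0.29 ± 0.064 (SE, adjusted p = 0.0416 and 0.0369).

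**Figure D2:**
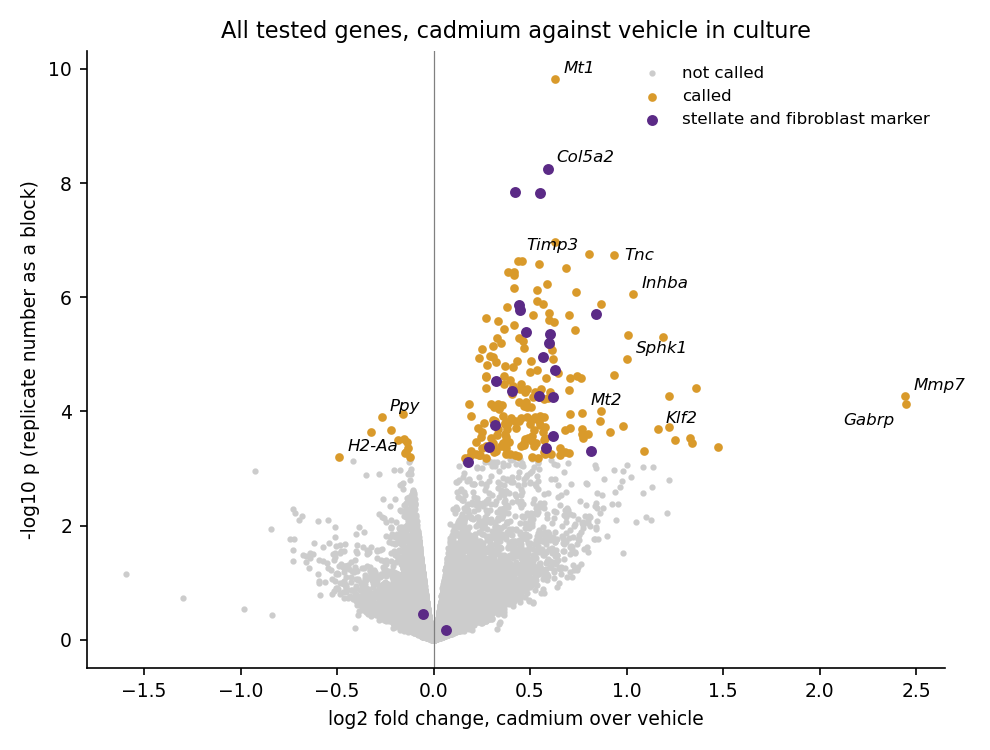
Log2 fold change (cadmium over vehicle) against -log10 p of the fit with the replicate number as a block, 1 point a gene over 16743 tested genes: gray not called, orange called at an adjusted p below 0.05, purple stellate and fibroblast markers. Mt1 has the smallest p, 20 of the 23 purple points are among the called genes, and 211 of the 223 called genes lie right of 0.

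The collagen family as a whole had 19 of 36 tested genes called, all higher, with a median of 0.31. The families described here by their symbols were chosen after the values were seen. They took in collagens of other classes besides the fibrillar ones, among them Col15a1 (0.41 ± 0.049) and Col18a1 (0.27 ± 0.037, SE), which sit at basement membranes. Serpinh1, the chaperone that folds collagen, rose by 0.46 ± 0.052 to 76.1 ± 18.3 CPM in cadmium, against 55.6 ± 14.7 CPM in vehicle libraries (SD, n = 5 each). Of the laminins, 3 of 10 were called, including Lamb2 (0.41 ± 0.071), and of the integrin subunits, which anchor cells to matrix, 3 of 29, including the fibronectin receptor subunit Itga5 (0.60 ± 0.080, SE). The cell-surface proteoglycans gave 2 of 9, Gpc1 (0.39 ± 0.045) and Sdc1 (0.60 ± 0.081, SE).

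Some matrix-degrading enzymes rose, and so did most of their inhibitors. Of 16 matrix metalloproteinases 4 were called, all higher: Mmp2 (0.74 ± 0.092), Mmp14, the membrane enzyme that activates Mmp2 (0.38 ± 0.050), Mmp13 (0.45 ± 0.10) and Mmp7 (2.44 ± 0.44, SE). DESeq2 called 2 of the 16 and limma-voom 4. Of the 4 TIMP genes, which encode inhibitors of these enzymes, 3 were called. Timp3 stood at 40.1, 50.3, 19.5, 28.3 and 53.7 CPM in cadmium libraries, against 15.4, 31.4, 14.65, 17.1 and 30.9 CPM in vehicle libraries, higher in all 5 pairs with overlapping groups (0.81 ± 0.089, SE, adjusted p = 0.00043). Timp1 and Timp2 rose by 0.84 ± 0.11 and 0.27 ± 0.045 (SE). Of 12 ADAMTS proteases 2 were called, 1 of them Adamts1 (0.42 ± 0.058, SE), and DESeq2 called 1. Tnc, which encodes the wound-associated matrix protein tenascin C, rose by 0.94 ± 0.10 (SE, adjusted p = 0.00043), to 31.8 ± 14.1 CPM in cadmium, against 16.3 ± 5.57 CPM in vehicle libraries (SD, n = 5 each).

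Genes of the TGF-beta and activin system, secreted signals that drive matrix production, were also among the called genes. Inhba, which encodes the activin A subunit, stood at 9.97, 18.2, 4.99, 9.13 and 19.1 CPM in cadmium libraries, against 3.84, 7.245, 3.87, 6.49 and 7.58 CPM in vehicle libraries. Cadmium was higher in every pair, by the most in pairs 1, 2 and 5, and the groups overlapped. The log2 fold change was 1.03 ± 0.13 (SE, adjusted p = 0.00077), and the call held without each pair in turn (adjusted p of 0.00865 or less). Among 17 ligands tested, Inhba and Tgfb1 (0.38 ± 0.078, SE, adjusted p = 0.0233) were called and 14 were on the higher side, with a median of 0.33. DESeq2 called 1 of the ligands and gave Tgfb1 an adjusted p of 0.146. Of 13 receptors 1 was called, Tgfbr2 (0.35 ± 0.066, SE), with a median of 0.02.

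Binders and inhibitors of the system gave 6 called of 20. They included Lrrc32, which holds latent TGF-beta at the cell surface (0.61 ± 0.093), Grem1, which blocks BMP ligands (0.98 ± 0.20), and Fstl1, a follistatin-like secreted protein (0.55 ± 0.062, SE). Pmepa1, another of the 6 and a well-known target of TGF-beta signalling, rose by 0.32 ± 0.051 (SE). The carriers of insulin-like growth factors and the proteases that cleave them moved in both directions, with 5 of 8 tested called. Igfbp3 (0.45 ± 0.079), Igfbp4 (0.78 ± 0.17), Htra1 (0.94 ± 0.16) and Pappa (0.70 ± 0.12, SE) rose, while Pappa2 fell by 0.16 ± 0.031 (SE, adjusted p = 0.0165).

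Genes normally kept off in beta cells, called disallowed genes, and markers of other non-endocrine cells were read next. Of 19 disallowed genes 18 were on the higher side (median 0.35), with 14 higher and 0 lower at an unadjusted p below 0.05. The 3 called were all higher: Pdgfra and Igfbp4, both given above, and Rest, a repressor of neuronal and endocrine genes (0.47 ± 0.088, SE). DESeq2 called 2 of the 19 and limma-voom 3. Stellate cells and fibroblasts are known to express Pdgfra, Igfbp4 and Rest, and Pdgfra stands in both lists. Which cells of the islets these changes came from was not tested. Schwann cell markers, of the glia that sheathe islets, gave 2 called of 11, Ngfr and Cdh19 (0.42 ± 0.049 and 0.47 ± 0.071, SE), with 10 on the higher side and a median of 0.28. Endothelial markers gave 0 called of 19, with 17 on the higher side, a median of 0.18 and 6 higher at an unadjusted p below 0.05. DESeq2 and limma-voom called 0 of the endothelial markers.

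**Figure D3:**
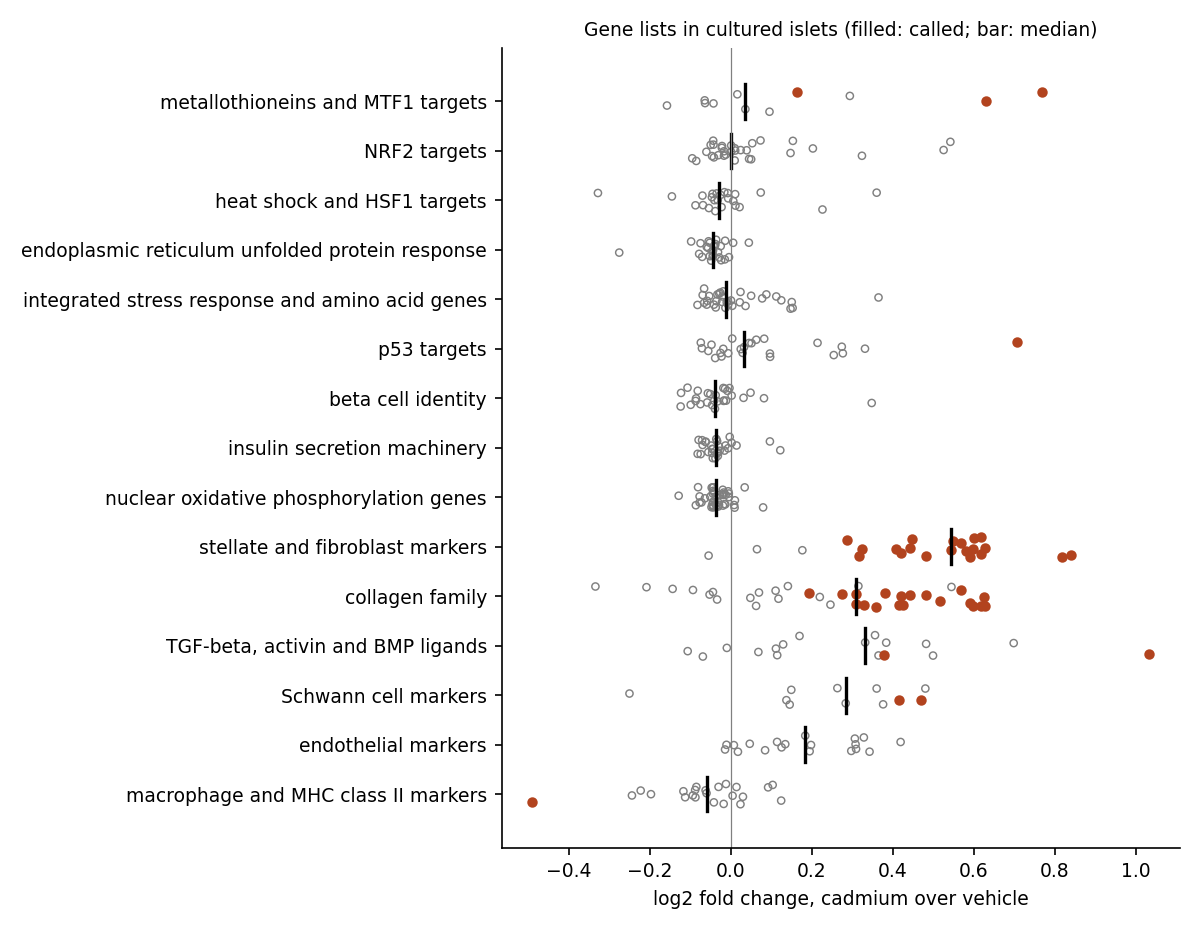
Log2 fold change (cadmium over vehicle) of each tested member of 15 gene lists, 1 row a list; filled points passed an adjusted p of 0.05 with the replicate number as a block, open points did not, and black bars are list medians. The stellate and fibroblast row has 20 filled points and a median of 0.54, whereas the NRF2, heat shock, unfolded protein and beta cell rows have no filled point and medians between -0.04 and 0.0012.

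Gabrp and Mmp7 had the largest fold changes, and both were low transcripts that moved unevenly across pairs. Gabrp, a subunit of a GABA-A receptor, stood at 1.80, 2.19, 0.16, 0.44 and 2.38 CPM in cadmium libraries, against 0, 0.71, 0.23, 0 and 0.31 CPM in vehicle libraries (2.45 ± 0.45, SE, adjusted p = 0.012). Mmp7 stood at 2.675, 3.61, 0.079, 0.28 and 4.505 CPM in cadmium libraries, against 0.040, 0.67, 0.38, 0 and 0.86 CPM in vehicle libraries. Both were lower with cadmium in pair 3 and highest with cadmium in pairs 1, 2 and 5, the pairs in which Inhba differed most. Ereg, a ligand of the EGF receptor, Has2, which makes hyaluronan, and Smoc2, a matrix protein, had log2 fold changes of 1.47 ± 0.33, 1.36 ± 0.24 and 1.33 ± 0.28 (SE). All had mean levels of 1.42 CPM or less with cadmium, and each was higher with cadmium in all 5 pairs. Vip, a neuropeptide, rose in 4 of 5 pairs, at 12.95, 32.0, 14.5, 21.0 and 4.18 CPM in cadmium libraries, against 4.72, 7.285, 3.57, 6.45 and 8.83 CPM in vehicle libraries. Its log2 fold change was 1.34 ± 0.29 (SE, adjusted p = 0.0327), with an adjusted p of 1.67e-09 without pair 5 and between 0.1 and 0.279 without any other pair.

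Besides Mt1 and Klf2, all cadmium libraries lay above all vehicle libraries for Sphk1 and Nrcam, which were chosen after their values were seen. Sphk1, the kinase that makes sphingosine-1-phosphate, stood at 2.18, 3.65, 1.90, 2.58 and 3.42 CPM in cadmium libraries, against 1.48, 1.54, 1.19, 0.95 and 1.61 CPM in vehicle libraries (1.00 ± 0.16, SE, adjusted p = 0.00362). Nrcam, a cell adhesion molecule, stood at 53.1 ± 1.92 CPM in cadmium and 46.8 ± 1.85 CPM in vehicle libraries (SD, n = 5 each; 0.18 ± 0.034, SE, adjusted p = 0.012).

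The 12 genes called lower were few and changed little. Ppy, the hormone of PP cells, stood at 1513, 1409, 2784, 1580 and 2085 CPM in cadmium libraries, against 1947, 2020, 2790, 1796 and 2525 CPM in vehicle libraries. It was lower in all 5 pairs, with nearly equal values in pair 3, and the groups overlapped (-0.27 ± 0.053, SE, adjusted p = 0.0176). The call was lost without pair 1 or pair 2 (adjusted p = 0.108 and 0.0773). Pappa2, a protease of insulin-like growth factor carriers, stood at 381.8 to 432.4 CPM in all cadmium libraries and at 442.5 to 490.4 CPM in all vehicle libraries, with no overlap. The groups were also separated for L3mbtl2, a chromatin protein (-0.22 ± 0.045), Rnf216, a ubiquitin ligase (-0.15 ± 0.033), Ksr2, a scaffold of RAS signalling (-0.14 ± 0.030), and H2-Aa (-0.49 ± 0.11, SE). H2-Aa, a class II antigen presentation gene of macrophages and other antigen-presenting cells, was the 1 gene called of 23 in the macrophage list, of which 16 were on the lower side, and DESeq2 called 0 (adjusted p of H2-Aa = 0.172). Its partner Cd74 was lower in all 5 pairs and did not pass (-0.22 ± 0.073, SE, adjusted p = 0.23). Without pairs 1 to 5 in turn, 2, 2, 8, 4 and 16 genes were called lower. Gm15681, Cad, Tox3, Pcdh15 and Ep300 were also called lower, with log2 fold changes between -0.33 and -0.12.

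Beta cell genes did not pass. Of 28 beta cell identity genes 0 were called and 23 were on the lower side, with a median of -0.04, beside -0.0025 over all genes. Over all tested genes 1.33% were called and 48.6% were on the higher side. At an unadjusted p below 0.05 there were 6 of them, all lower, and DESeq2 and limma-voom called 0. Slc2a2, the glucose transporter of mouse beta cells, was lower in all 5 pairs, at 1192, 1007, 1085, 1051 and 909.5 CPM in cadmium libraries, against 1269, 1100, 1105, 1100 and 1062 CPM in vehicle libraries (-0.11 ± 0.032, SE, adjusted p = 0.18). Prlr, the prolactin receptor, was lower in all 5 pairs as well (-0.12 ± 0.036, SE, adjusted p = 0.15). The transcription factors Pdx1, Mafa and Nkx6-1 had log2 fold changes of -0.05 ± 0.039, -0.01 ± 0.093 and -0.07 ± 0.069 (SE). Slc30a8, which loads zinc into insulin granules, had -0.04 ± 0.030 (SE).

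Hormone genes other than Ppy did not pass either. Ins1 and Ins2, a pair of closely similar insulin genes, had log2 fold changes of -0.08 ± 0.046 and -0.12 ± 0.055, Iapp, the amyloid peptide, -0.06 ± 0.038, glucagon (Gcg) 0.01 ± 0.034 and somatostatin (Sst) -0.10 ± 0.031 (SE). Sst was lower in all 5 pairs (adjusted p = 0.19). The insulin secretion machinery gave 0 called of 29, with 25 on the lower side, 4 lower at an unadjusted p below 0.05 and 0 called by DESeq2 or limma-voom. Prohormone processing genes and granins gave 0 called of 20, with 15 on the lower side, 5 lower at an unadjusted p below 0.05 and 0 called by either other tool. Nuclear oxidative phosphorylation genes gave 0 called of 42 and 37 on the lower side, with 2 lower at an unadjusted p below 0.05 and 0 called by either other tool. The medians of these lists lay between -0.05 and -0.04. Delta and PP cell markers gave 1 called of 13, Ppy, with 10 on the lower side and a median of -0.07. At an unadjusted p below 0.05 there were 0 higher and 6 lower of them, and DESeq2 and limma-voom each called 1. Over the fixed panel of 30 genes as a whole, Mt1, Mt2, Slc30a1 and Ppy were the 4 called.

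The share of all counts held by the stellate and fibroblast markers was higher with cadmium in each of the 5 pairs. It was 0.218, 0.353, 0.163, 0.199 and 0.268% in cadmium libraries, against 0.118, 0.244, 0.128, 0.152 and 0.203% in vehicle libraries, with means of 0.240% ± 0.0734 and 0.169% ± 0.0532 (SD, n = 5 each). The groups overlapped, because libraries numbered 2 and 5 were highest in both. The exact two-sided permutation test over all arrangements of 5 against 5 gave p = 0.119 (adjusted p = 0.448 over 6 shares), and the exact test over the 32 sign patterns of the pairs gave p = 0.0625, the smallest it allows, and an adjusted p of 0.375. In whole-islet RNA, more cells of a type and more of its RNA per cell cannot be told apart. The summed level of the marker list was 1639 to 3465 CPM in cadmium and 1217 to 2440 CPM in vehicle libraries.

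The endothelial share was higher with cadmium in 4 of 5 pairs, at 0.0120% ± 0.00278 in cadmium and 0.01035% ± 0.002705 in vehicle libraries (SD, n = 5 each; exact permutation p = 0.333, adjusted p = 0.448). The macrophage share was 0.0783% ± 0.00453 in cadmium and 0.0797% ± 0.004165 in vehicle libraries (SD, n = 5 each; exact permutation p = 0.611, adjusted p = 0.611). Ins1 and Ins2 held 13.5, 11.97, 13.0, 13.7 and 10.52% of counts in cadmium libraries, against 13.7, 13.2, 13.05, 13.1 and 13.2% in vehicle libraries (exact permutation p = 0.325, adjusted p = 0.448). Cadmium libraries 2 and 5, the lowest in insulin, were the highest in stellate markers. Vehicle libraries 2 and 5 were also the highest of their group in stellate markers, with insulin shares of 13.2% each. The lowest insulin share among vehicle libraries, 13.05%, was that of library 3.

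**Figure D4:**
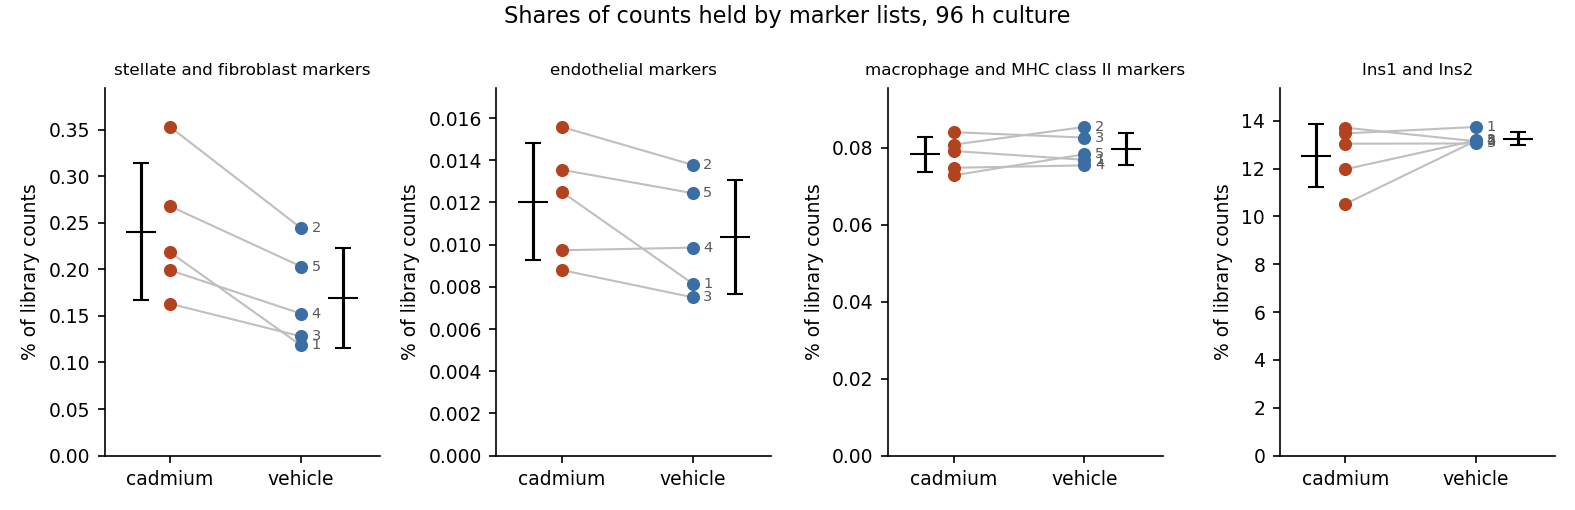
Share of library counts held by the stellate and fibroblast, endothelial and macrophage marker lists and by Ins1 and Ins2, cadmium (left, red) and vehicle (right, blue), with lines joining libraries of the same replicate number and black bars for mean ± SD (n = 5). The stellate share is higher at the cadmium end of every line, while the groups overlap at 0.163 to 0.353% with cadmium and 0.118 to 0.244% with vehicle.

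Many genes called for cadmium were also called for the replicate number. The replicate number itself gave 618 called genes of 16743 (3.69%), and 174 of the 223 cadmium-called genes (78.0%) were among them. Of the 23 stellate markers 20 were called for the replicate number. When the mean log2 level of these markers in each library was added to the fit as a covariate, an alternative chosen after the data were seen, 0 genes were called, with 733 at an unadjusted p below 0.05, and 173 of the 223 called genes had the same sign. The covariate shares its genes with the called set and leaves fewer degrees of freedom, and its part in the result was not tested beyond this.

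The same contrast was then read in mice given cadmium for 6 or 18 weeks, in libraries that share no sample with the culture. The 211 genes called higher in culture lay on the lower side at 6 weeks: 47 of 206 measured (22.8%) were higher with cadmium, beside 49.3% of all genes, with a median log2 fold change of -0.11. At 18 weeks 185 of 203 (91.1%) were higher, beside 50.05% of all genes, with a median of 0.48. Many of these genes varied together across the culture libraries, so they are not independent, and the shares were not tested. The called counts in vivo were 0 of 18080 genes at 6 weeks, with 923 (5.11%) at an unadjusted p below 0.05, and 75 of 20911 (0.359%) at 18 weeks. Stc2, a secreted glycoprotein, and Lgals1, galectin 1, were the 2 genes called higher both in culture and at 18 weeks. Their log2 fold changes were 0.53 ± 0.12 and 0.54 ± 0.067 in culture and 3.001 ± 0.55 and 2.08 ± 0.35 at 18 weeks (SE). Stellate and fibroblast markers were higher in 4 of 23 at 6 weeks (median -0.06) and in 20 of 23 at 18 weeks (median 1.124). Markers of other cells moved in vivo as well: the 12 tested acinar markers were higher with cadmium in 3 of 12 in culture, in 12 of 12 at 6 weeks (median 0.56) and in 12 of 12 at 18 weeks (median 3.34), and macrophage markers in 7 of 23, 0 of 23 (median -0.37) and 22 of 23 (median 0.39). Their part in the in vivo values was not tested. Library depth at 18 weeks was uneven, at 9092759 to 51852364 counts.

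**Figure D5:**
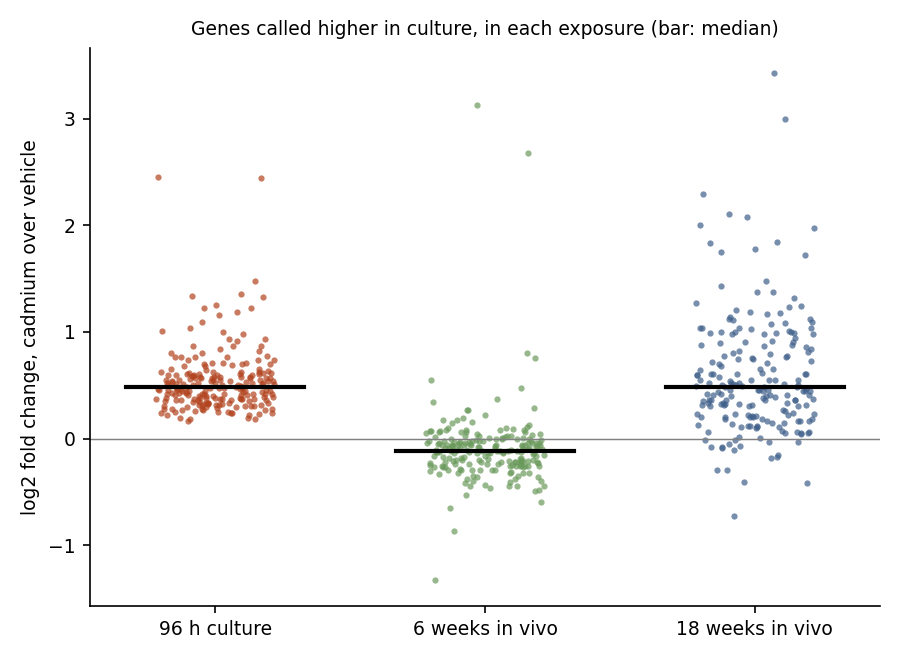
Log2 fold change (cadmium over vehicle) of the 211 genes called higher in culture, in culture, at 6 weeks and at 18 weeks, 1 point a gene, black bars for medians. The culture column holds the values that chose the genes, the 6 week column has a median of -0.11, and the 18 week column a median of 0.48.

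Mt1 was on the higher side in all 3 settings, with log2 fold changes of 0.22 ± 0.16 at 6 weeks and 0.84 ± 0.25 at 18 weeks (SE, adjusted p = 0.92 and 0.14), and Mt2 with 0.20 ± 0.23 and 1.09 ± 0.28 (SE, adjusted p = 0.94 and 0.10). The difference of the cadmium effect, culture minus in vivo, was 0.40 ± 0.31 against 6 weeks and -0.21 ± 0.30 against 18 weeks for Mt1 (SE, adjusted p = 1 and 0.82). Over all 22721 genes of the joint fit the test of this difference called 0 against 6 weeks and 0 against 18 weeks with edgeR. At an unadjusted p below 0.05 there were 751 (3.31%) and 2723 (12%) genes. In this joint fit the culture contrast itself called 2 genes, against 223 in the culture fit. The 0 calls therefore do not show that the effects were alike. Inhba came closest against 6 weeks, with a difference of 1.27 ± 0.22 in the joint fit (SE, adjusted p = 0.089). Its separate fits gave 1.03 ± 0.13 in culture and -0.29 ± 0.16 at 6 weeks (SE). Against 18 weeks Dusp26, Prpf19, Cela1, Edil3 and Gm37755 came closest, each with an adjusted p of 0.086. Their differences were -0.86, -0.42, -3.53, 0.71 and 0.97. Without pair 3, and likewise without pair 4, 1 gene was called higher against 6 weeks. Timp3 differed by 0.86 ± 0.18 from 6 weeks and by 0.75 ± 0.17 from 18 weeks (SE, adjusted p = 0.48 and 0.22). Ppy, lower in culture, had 0.11 ± 0.15 at 6 weeks and 0.63 ± 0.18 at 18 weeks (SE, adjusted p = 0.95 and 0.14), and its difference against 18 weeks was -0.90 ± 0.23 (SE, adjusted p = 0.23).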

How the data were processed

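RNA sequencing counts of 10 islet libraries in culture were analysed, with 20 in vivo libraries for the closing comparison. The deposited values are raw read counts per Ensembl gene, with no normalization by the authors. Per the submitters' processing notes, cutadapt 1.13, STAR, HTSeq 0.6.1p1, DESeq2 and the build mm10 were used upstream. Not given in the sources used here were the strand setting, the annotation release and the handling of multiply mapping reads, so near-identical, overlapping and antisense genes are uncertain. Symbols were found for 54079 of the 54232 IDs (99.72%). Mitochondrially encoded proteins had no counts.

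Genes were filtered by filterByExpr (minimum count 10, minimum total 15), scaled by TMM and tested with edgeR 4.0.16 (quasi-likelihood F test, R 4.3.3), with the replicate number as a block and Benjamini-Hochberg adjustment over all tested genes. Gene coordinates are from GENCODE M21. Log2 fold changes are cadmium over vehicle, and SE is the fold change divided by the square root of F. In vivo contrasts had no block. Differences between settings came from 1 fit of all 30 libraries with the culture block. For 6 shares of counts, exact permutation tests (two-sided) were adjusted over the 6. No pair of libraries within a group was near-identical (chi-square per degree of freedom of 2.77 or more over 20 pairs).

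The groups, the 44 gene lists, the 11 families and the rule for named genes were chosen with earlier results of these data known. The rule for named genes took the 15 called genes of smallest p in each direction among those changed the same way in all 5 pairs, a panel of 30 genes, called list members (or the 2 of smallest p where fewer than 2 were called), the 10 largest changes among called genes, and the 5 called genes of smallest p for each difference between settings. The text gives those that carry a result, and a few genes are not reported here. Families of genes by symbol, and the genes marked so in the text, were chosen after values were seen. Alternatives were no block, RLE scaling, DESeq2 1.42.0, limma-voom (limma 3.58.1), no filter, all libraries in 1 fit, each replicate left out, and the stellate covariate.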

Additional observations from a re-analysis of the deposited data

Results flagged for a closer look

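In 18 of 224 groups of 5 libraries tested, 1 library stood apart from the other 4 by Dixon's criterion, which chance meets in about 1 of 20 groups. Leaving out each replicate number in turn gave 102 to 261 called genes in culture, against 223, with 119 without replicate 2.

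Libraries numbered 2 accounted for 11 of the 18. Cadmium library 2 was high for Tnc (56.11 CPM, the others 19.9 to 30.2), Vim (182.9, the others 91.2 to 113), Tm4sf1 (23.83, the others 13.2 to 14.5), Cdh19 (23.06, the others 12.03 to 14.7), Gas7 (19.89, the others 9.77 to 12.3), Atf3 (15.59, the others 9.53 to 11.2) and Stc2 (6.414, the others 3.97 to 4.17). Vehicle library 2 was high for Angptl2 (26.88 CPM, the others 13.9 to 17.5), Gas7 (14.57, the others 5.72 to 7.56) and H2-Aa (7.839, the others 4.87 to 5.42), and low for Prlr (506.6, the others 531.4 to 536.9).

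Among beta cell genes, Mafa stood at 649.2 CPM in cadmium library 5, with the others at 398.9 to 469.9, and at 608 CPM in vehicle library 1, with the others at 420 to 467.7. Slc2a2 stood at 1269 CPM in vehicle library 1, with the others at 1062 to 1105, and the share of counts held by Ins1 and Ins2 was 13.74% there, with the others at 13.05 to 13.18%. Cadmium library 5 was low for Rnf216 (50.93 CPM, the others 53.2 to 54.0) and high in acinar markers (0.01313% of counts, the others 0.00856 to 0.00942%). Vehicle library 3 was high for Ddit3 (60.03 CPM, the others 46.4 to 50.1), and cadmium library 3, at 64.0 CPM, was the highest of its group.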

How the results depend on the processing

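With no replicate block, 1 gene was called higher in culture and 0 lower, against 211 and 12 with it, and the cause was not tested. The labels do not say what a replicate number shares. The same-number correlation was 0.34, 0.40, 0.54, 0.27 and 0.19 in pairs 1 to 5 over genes with an average log2 CPM above 3. The highest correlation between different numbers over these genes was 0.35. The limit of 3 was chosen after seeing the data. Genes called higher and lower were 125 and 5 with DESeq2, 455 and 71 with no filter on low counts, 2 and 0 with all 30 libraries in 1 fit, and 0 and 0 with the stellate level as a covariate, an alternative chosen after seeing the data. In the fit with no filter the adjusted p of Mt1 was 2.32e-84, against 2.5e-06 with the filter. Counts of calls from that fit are therefore not comparable with the others. Leaving out each replicate gave 100 to 245 genes higher and 2 to 16 lower. RLE scaling (212 and 12) and limma-voom (214 and 14) stayed within 1.5 times. The replicate number gave 1936 genes with no filter, against 618, under the same limit of that fit. The difference between culture and 6 weeks gave 0 to 1 gene higher as replicates were left out, and that between culture and 18 weeks gave 1 gene higher and 3 lower with no block.

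With the stellate covariate, log2 fold changes of 23 named genes changed sign: Mt3 -0.34, Nqo1 -0.050, Gclm 0.0080, Hspa1a -0.99, Ddit3 0.14, Atf3 -0.13, Trib3 0.027, Sparc -0.0080, Dcn -0.018, Col1a1 -0.30, Col1a2 -0.23, Col3a1 -0.42, Fn1 -0.086, Pdgfra -0.69, Mmp7 -0.56, Grem1 -0.29, Igfbp3 -0.14, Igfbp4 -0.18, Smoc2 -0.98, Gcg -0.056, Pdx1 0.17, Mafa 0.57 and Nkx6-1 0.34. None of these passed in that fit, and the cause was not tested. Leaving out each replicate gave ranges across 0 for Mt3 (-0.077 to 0.14), Hmox1 (-0.17 to 0.090), Nqo1 (-0.036 to 0.15), Hspa1a (-0.25 to 0.28), Trib3 (-0.041 to 0.0057), Gcg (-0.0016 to 0.041) and Mafa (-0.17 to 0.080), none of them called. No named gene changed sign with no block, RLE scaling, DESeq2, limma-voom, no filter or all 30 libraries. With 24197072 to 26549350 counts a library, a gene at 1 CPM rests on few reads, which limits Klf2, Mmp7, Gabrp, Ereg, Has2 and Smoc2.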

Other observations

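Lists not described above held few called genes. In the hypoxia list Stc2 was called, 1 of 19 (0 with DESeq2), and in the list of fatty acid synthesis and oxidation Scd1, the desaturase that makes monounsaturated fatty acids, 1 of 24. Scd1 rose by 0.48 ± 0.085 on the log2 scale (SE, adjusted p = 0.00808), to 13.7 ± 2.89 CPM in cadmium, against 9.88 ± 3.05 CPM in vehicle libraries (SD, n = 5 each), and lost its call without pair 4 (adjusted p = 0.0542). Of 13 glucocorticoid targets the 2 called were Mt1 and Mt2, which glucocorticoids are also known to induce.

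In the lists of interferon response and of NF-kB and inflammation, edgeR, DESeq2 and limma-voom called 0 genes. Of 29 interferon response genes 24 were on the higher side (median 0.09, with 7 higher and 1 lower at an unadjusted p below 0.05), and of 26 genes of NF-kB and inflammation 20 (median 0.13, with 6 higher and 0 lower). Cytosolic ribosomal protein genes lay on the lower side in 56 of 73 (median -0.03), with 0 at an unadjusted p below 0.05. Cell cycle genes gave 0 called of 40 with each tool (median -0.03, with 0 higher and 2 lower at an unadjusted p below 0.05). Ductal markers gave 0 called of 15 with each tool, 12 of them on the higher side (median 0.07, with 4 higher at an unadjusted p below 0.05). Alpha cell markers gave 0 called of 14 with each tool (median -0.0073, with 1 higher and 1 lower at an unadjusted p below 0.05), and acinar markers 0 of 12 (median -0.18, with 0 higher and 2 lower).

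Gabrp and Mmp7, the largest fold changes in culture, were also on the higher side at 6 weeks, at 2.67 ± 1.084 and 3.13 ± 1.095 on the log2 scale (SE, adjusted p = 0.92 each with edgeR).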
